A study of Mus musculus with 3 samples.

Results

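The 31 genes described here encode the machinery that takes up glucose, splits it and exports lactate, together with genes that sense or respond to low oxygen. They were listed by name, with earlier results of these data known, and are 31 of the 29298 gene columns in the tables. All 31 were counted in each of the 18 tables. They comprise 3 transporter genes (Slc2a1, Slc2a3, Slc16a3), 7 genes of upper glycolysis (Hk1, Hk2, Hk3, Gpi1, Pfkl, Pfkp, Pfkfb3), 8 of lower glycolysis (Aldoa, Tpi1, Gapdh, Pgk1, Pgam1, Eno1, Pkm, Ldha), 3 of oxygen sensing (Hif1a, Egln1, Egln3) and 10 of the hypoxia response (Pdk1, Bnip3, Ndrg1, Car9, Vegfa, P4ha1, Ddit4, Higd1a, Ankrd37, Ero1l).

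Glycolysis converts glucose to pyruvate in the cytosol, and lactate dehydrogenase turns pyruvate into lactate when the mitochondria do not take it up. Prolyl hydroxylases of the Egln family use oxygen to mark the transcription factor subunit HIF-1α for destruction, so that in low oxygen HIF-1α accumulates and raises the transcription of glucose transporters, glycolytic enzymes, angiogenic factors and mitophagy genes. Macrophages also raise this programme on inflammatory activation without a fall in oxygen, and the infarcted heart wall is a tissue in which blood supply is cut off and leukocytes enter in large numbers.

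The study sequenced single leukocytes from infarcted mouse hearts after permanent ligation, which leaves the occluded region unperfused. The hearts came from F7fl/fl CX3CR1Cre mice and F7fl/fl WT mice. Both carry the floxed allele of F7, the gene for coagulation factor 7. The Cre of the first group is driven from CX3CR1, a locus active in monocytes and many macrophages and not restricted to the heart. Hearts were taken at several times after infarction, dissociated with enzymes, cleared of dead cells and enriched for CD45+ cells on microbeads. Cells carried a sample tag, an oligonucleotide label for a biological replicate, and were captured on the BD Rhapsody platform in 3 multiplexed libraries with 7, 5 and 6 tags. Neither genotype, time nor animal age was assigned to single tags here, so no comparison of genotypes or times was made. The results describe cell classes and macrophage subsets, compared within each tag.

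A total of 25762 cells was read, and 25640 with at least 200 genes were kept, with a median of 16529.5 molecules per cell. The classes were set by marker rules applied in order: T cells by Cd3 genes, B cells by Cd79a, neutrophils by S100a8, S100a9 and Csf3r, macrophages by C1q genes, dendritic cells by Flt3 and monocytes by Ly6c2. This gave 15023 macrophages, 2427 monocytes, 1371 dendritic cells, 1225 T cells, 779 B cells, 488 neutrophils and 4327 other cells. The median depth was 20575 molecules in macrophages and 3997 in neutrophils. Library 1, whose run name carries d3, was made with another bead version and its counts include intronic reads, so a difference between library 1 and the others cannot be told apart from that processing. No cell index was shared by 2 tags of a library. A doublet caller with an expected rate of 6% marked 0, 1 and 1 cells in the 3 libraries at its automatic threshold. Calls this few do not show that doublets were absent, and doublets were not removed from the results given here. The 512 cells with the highest doublet scores held 69 of the 1225 T cells. The T class summed to a median of 11473.5 CPM over 9 macrophage markers, against 18998 CPM in macrophages and 1292.67 CPM in dendritic cells. Levels are molecules per 1000000 molecules (CPM), summed over the cells of a class within 1 tag, and they are compared between groups of cells for 1 gene, not between genes.

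In macrophages, the largest class, all 31 genes were detected in every tag. Among the transporters, Slc2a1, the widespread glucose importer, ranged from 40.5 to 143 CPM over the 18 tags with a median of 64.4 CPM. Slc16a3, the exporter of lactate, ranged from 31.4 to 172 CPM with a median of 62.0 CPM. Slc2a3, a glucose importer of high affinity, stayed between 3.06 and 5.97 CPM. The first 2 varied several-fold between tags, and Slc2a3 was low in every one.

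The genes of lower glycolysis varied less between tags than Slc16a3. Gapdh, which makes the first NADH of the pathway, had a median of 1567 CPM (range 1005 to 2208 CPM), and Aldoa, which splits the sugar bisphosphate, a median of 934 CPM (range 727 to 1214 CPM). Ldha, the lactate dehydrogenase subunit, had a median of 390 CPM (range 277 to 615 CPM). Hk3, a hexokinase of myeloid cells, was the exception to overlap between libraries: its level was 72.8 to 96.8 CPM in the 7 tags of library 1, 33.1 to 53.1 CPM in library 2 and 32.2 to 47.9 CPM in library 3. It was the 1 member of the 30 with a median of at least 5 CPM for which every tag of library 1 lay above every tag of the other libraries, where 20.2% of 9192 genes did so, and none lay below throughout, where 11.1% of genes did. Slc2a3 fell under this minimum and was not compared in this way.

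Hif1a had a median of 185 CPM in macrophages, with a range from 94.7 to 308 CPM. Its hydroxylase genes differed in spread: Egln1 lay between 35.8 and 101 CPM, and Egln3 between 8.46 and 57.2 CPM. Of the response genes, Vegfa, the endothelial growth factor, ranged from 71.9 to 544 CPM with a median of 223 CPM. Car9, a cell-surface carbonic anhydrase and a common marker of hypoxic tumour cells, stayed between 4.63 and 8.75 CPM. The high ends of Egln3 and Vegfa belonged to the same tag, tag 10 of library 1.

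**Figure D1:**
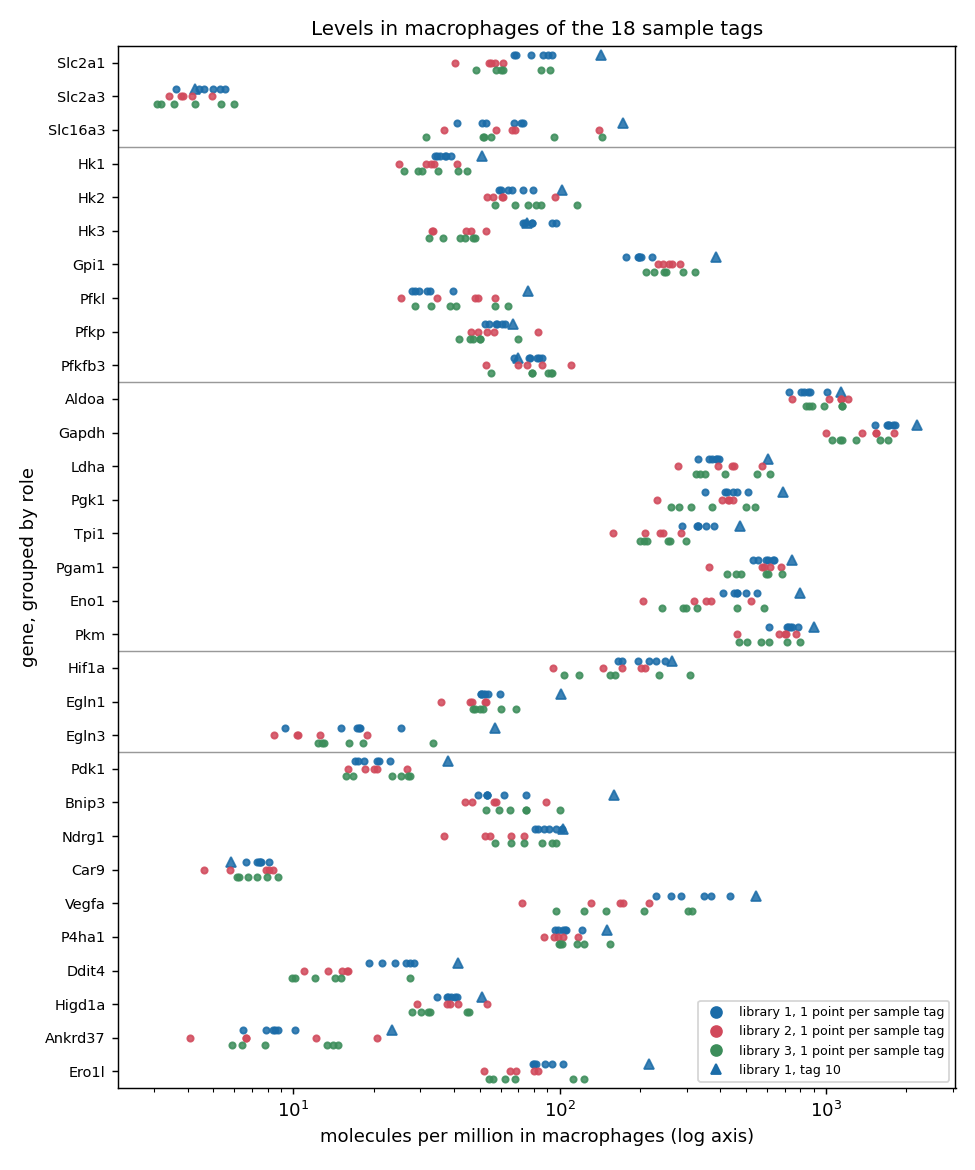
Macrophage level of the 31 genes in each of the 18 sample tags, in CPM on a log axis, with 1 point per tag coloured by library and tag 10 of library 1 drawn as a triangle. The triangle lies at the top of library 1 for most genes, and Hk3 is the gene for which the library 1 points, from 72.8 to 96.8 CPM, lie clear of the other libraries.

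Tag 10 of library 1 stood apart in these genes. Its macrophages had the highest level of the 7 tags of library 1 for 27 of the 30 members tested, where 16.4% of 9237 genes were highest in that tag. For 16 of the 30 the level also lay far from the next tag, as it did for 3.68% of all these genes. Ero1l, an oxidase of the endoplasmic reticulum, reached 217 CPM there against 79.3 to 103 CPM in the other tags of the library. Bnip3, a mitophagy receptor, reached 160 CPM against 49.2 to 74.7 CPM, and Slc16a3 172 CPM against 41.1 to 72.6 CPM. The members that were not highest there were Hk3, Pfkfb3 and Car9.

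In macrophage subsets and in monocytes tag 10 was also highest more often among the members than over all genes. The subsets are part of the macrophages described above, so their ranks are not separate from those. Tag 10 was highest for 24 of 30 members in macrophages high in the wound gene Arg1 (17.5% of genes), for 19 of 31 in those low in it (15.7% of genes), and for 22 of 30 in monocytes (9.87% of genes). In dendritic cells tag 10 was highest for 10 of 30 members (14.7% of genes). In T cells, with only 20 cells in this tag, it was highest for 6 of 30 (19.2% of genes). In the B class, with 28 cells in this tag, it was highest for 20 of 31 (11.4% of genes). The B class carried macrophage transcripts: the 9 macrophage markers summed to 6501 CPM in it in tag 10, against 11507 CPM in the macrophages of that tag, and to 3921 to 8371 CPM in the B class of the other tags of library 1. The levels of Gapdh were 2264 CPM in the B class and 2208 CPM in macrophages of tag 10, and the part of these transcripts in the pattern of the B class was not tested. The share of macrophages that were high in Arg1 was 68.9% in this tag and 18.6% to 42.7% in the other tags of library 1. The part of that share in the levels over all macrophages was not tested. In macrophages low in Arg1 the gaps of tag 10 to the other tags of library 1 were smaller. Ero1l was 84.6 CPM there against 67.0 to 77.9 CPM, and 277 CPM against 100 to 132 CPM in those high in Arg1. Bnip3 was 49.3 against 38.1 to 48.4 CPM, and 211 against 73.3 to 107 CPM. Slc16a3 was 62.8 against 30.0 to 51.8 CPM, and 223 against 61.4 to 114 CPM. Other genes were not highest in tag 10 in macrophages low in Arg1. Ankrd37 was lowest there, at 3.63 against 4.18 to 6.79 CPM. Egln1 was 48.3 against 45.6 to 51.7 CPM, and Gpi1 183 against 166 to 187 CPM.

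Arg1 encodes arginase 1, which competes with nitric oxide synthase for arginine and marks wound-type macrophages. Macrophages with at least 5000 molecules were thinned to 5000, and those with 2 or more Arg1 molecules were called Arg1-high. Of 14359 macrophages, 4456 (31.03%) were Arg1-high, and all 18 tags entered the comparison with Arg1-low macrophages of the same tag. In Arg1-high macrophages 27 of the 31 genes were higher, 3 were lower and Car9 was not called, at an edgeR adjusted p under 0.05. Over the 11350 genes tested, 25.7% were higher and 26.5% were lower. The median log2 difference was 0.81 for the members and -0.02 for all genes. The 31 genes summed to a median of 9455 CPM in Arg1-high and 5492 CPM in Arg1-low macrophages.

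Of the transporters, Slc16a3 showed the widest gap. It ran from 61.4 to 223 CPM (median 116 CPM) in Arg1-high and from 24.0 to 62.8 CPM (median 35.6 CPM) in Arg1-low macrophages. It was higher in 18 of 18 tags, by 3.46-fold (log2 difference 1.79 ± 0.11 SE, edgeR adjusted p 3.2e-11), and only at the edge did the ranges over tags meet. Slc2a1 was 1.98-fold higher, in 17 of 18 tags (edgeR adjusted p 1.09e-08), with medians of 101 and 51.0 CPM. The other glucose transporter went the opposite way. Slc2a3 lay between 0 and 8.45 CPM (median 2.59 CPM) in Arg1-high and between 3.40 and 7.22 CPM (median 5.09 CPM) in Arg1-low macrophages, lower in 16 of 18 tags (log2 difference -0.80 ± 0.15 SE, edgeR adjusted p 0.000117).

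In upper glycolysis 6 of 7 genes rose. Pfkl, the liver-type phosphofructokinase that commits sugar to the pathway, ran from 42.2 to 107 CPM (median 67.4 CPM) in Arg1-high and from 20.8 to 33.2 CPM (median 26.1 CPM) in Arg1-low macrophages. The ranges of Pfkl did not overlap, and the gene was 2.57-fold higher (edgeR adjusted p 1.08e-11). Hk2, the inducible hexokinase, was 1.99-fold higher in 18 of 18 tags, with ranges of 73.4 to 153 and 38.8 to 72.0 CPM that did not overlap either. Hk1 was 1.60-fold and Gpi1, the next enzyme after hexokinase, 1.54-fold higher, each in 18 of 18 tags, and Pfkp, the platelet-type phosphofructokinase, 1.45-fold higher in 17 of 18. Hk3 rose by 1.16-fold in 14 of 18 tags (edgeR adjusted p 0.0081). Without library 1 the log2 difference of Hk3 was 0.13 and no longer called (edgeR adjusted p 0.215).

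Pfkfb3 was the 1 gene of this group that fell. Its product makes the activator of phosphofructokinase. The level of Pfkfb3 was 30.0 to 80.4 CPM (median 56.6 CPM) in Arg1-high and 76.7 to 115 CPM (median 88.2 CPM) in Arg1-low macrophages, lower in 17 of 18 tags (log2 difference -0.54 ± 0.10 SE, edgeR adjusted p 7.07e-05). The ranges touched over a few CPM. The libraries differed in size of the decrease: the log2 difference of Pfkfb3 was -0.18 in library 1, -0.78 in library 2 and -0.88 in library 3.

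All 8 genes of lower glycolysis rose, each in 18 of 18 tags. Eno1, the enolase, was 2.28-fold, Pgk1, the first step that returns ATP, 2.10-fold and Ldha 2.04-fold higher. Ldha ran from 452 to 834 CPM (median 636 CPM) in Arg1-high and from 254 to 364 CPM (median 313 CPM) in Arg1-low macrophages, so that its ranges did not overlap (log2 difference 1.03 ± 0.07 SE, edgeR adjusted p 1.22e-10). Gapdh and Aldoa were each 1.76-fold higher. Pkm, the pyruvate kinase, was 1.73-fold, Tpi1 1.58-fold and Pgam1 1.54-fold higher. Processed pseudogenes resemble several of these genes, and the sources used here do not say how the authors' counting split shared reads.

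The oxygen-sensing genes rose together with these enzymes. Hif1a ran from 167 to 410 CPM (median 280 CPM) in Arg1-high and from 87.8 to 188 CPM (median 139 CPM) in Arg1-low macrophages, 2.15-fold higher in 18 of 18 tags (edgeR adjusted p 1.24e-10). Egln3, the hydroxylase gene that is itself raised by HIF, was 3.30-fold higher in 17 of 18 tags, with medians of 27.6 and 9.27 CPM (edgeR adjusted p 3.84e-09). Egln1, the main hydroxylase of HIF-1α, was 1.55-fold higher, also in 17 of 18 tags.

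Of the 10 response genes 8 rose. Ankrd37, a small ankyrin-repeat gene raised by HIF, had the largest difference of the 31. It ran from 6.98 to 34.3 CPM (median 17.9 CPM) in Arg1-high and from 2.44 to 7.32 CPM (median 5.01 CPM) in Arg1-low macrophages, a 3.71-fold difference (log2 difference 1.89 ± 0.15 SE, edgeR adjusted p 1.16e-09, 18 of 18 tags). Vegfa ran from 143 to 670 CPM (median 417 CPM) and from 64.9 to 327 CPM (median 124 CPM), 2.68-fold higher within tags although the ranges over tags overlapped (edgeR adjusted p 1.05e-08). Ero1l was 2.05-fold and Bnip3 1.96-fold higher. Pdk1, the kinase that shuts pyruvate dehydrogenase, was 1.78-fold, Higd1a, a small mitochondrial protein, 1.59-fold and P4ha1, a collagen prolyl hydroxylase, 1.57-fold higher, each in 18 of 18 tags. Ddit4, an inhibitor of mTORC1, was 1.40-fold higher in 14 of 18, and without library 1 it was not called (edgeR adjusted p 0.073).

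Ndrg1, a stress gene often used as a hypoxia marker, was called lower. It lay between 21.2 and 107 CPM (median 46.9 CPM) in Arg1-high and between 62.2 and 110 CPM (median 82.7 CPM) in Arg1-low macrophages, lower in 14 of 18 tags (log2 difference -0.48 ± 0.13 SE, edgeR adjusted p 0.00457). The libraries differed: the log2 difference of Ndrg1 was 0.11 in library 1, -1.07 in library 2 and -0.89 in library 3. Without library 2 and without library 3 Ndrg1 was no longer called (edgeR adjusted p 0.101 and 0.163). Car9 had medians of 6.09 and 8.05 CPM (log2 difference -0.22 ± 0.10 SE, edgeR adjusted p 0.0693).

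The difference was present inside each library. The median log2 difference of the 31 genes was 0.68 in library 1, 0.73 in library 2 and 0.97 in library 3, with 27, 25 and 25 genes called higher. Arg1-high macrophages were deeper, with a median of 26652.5 molecules against 19460. When every cell was thinned to 5000 molecules before summing, all 27 members higher were still called. Of the 3 lower members Pfkfb3 was still called, Ndrg1 was not (log2 difference -0.22, edgeR adjusted p 0.121), and Slc2a3 fell under the filter and was not tested. Their macrophage markers summed to 13324 CPM against 25379.6 CPM, their monocyte markers to 691 against 670 CPM, their neutrophil markers to 154 against 114 CPM and their cycling markers to 351 against 299 CPM (medians over tags). The part of these differences in the result was not tested. The 5 cardiomyocyte markers summed to 3.39 and 4.70 CPM.

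HIF binds DNA at the core ACGTG, and the related GCGTG is its other common form. The 250 bases before the start site were read from RefSeq promoters of GRCm38.p6 for 29 of the 31 genes, and both motifs were searched on both strands. A gene with several start sites was counted if any of them had a match. The core ACGTG was present for 20 of the 29 genes (69.0%), against 18.5% of 27025 genes and 26.9% of the 7336 genes at 5 CPM or more in macrophages. GCGTG was present in 18 of 29 (62.1%), against 30.9% and 51.6%. Since the genes were listed partly as known hypoxia genes, these shares describe the list. A match does not show binding, and CACGTG, which reads the same on both strands, counts as 2 overlapping matches. The promoters of 5 genes that rose in Arg1-high macrophages are given 5′ to 3′ on the strand of the gene, with ACGTG and GCGTG and their reverse complements CACGT and CACGC in capitals: Ankrd37 (chr8:45999851-46000100, minus strand), Slc16a3 (chr11:120948817-120949066, plus), Egln3 (chr12:54203875-54204124, minus), Bnip3 (chr7:138909507-138909756, minus) and Ldha (chr7:46845554-46845803, plus).
Ankrd37: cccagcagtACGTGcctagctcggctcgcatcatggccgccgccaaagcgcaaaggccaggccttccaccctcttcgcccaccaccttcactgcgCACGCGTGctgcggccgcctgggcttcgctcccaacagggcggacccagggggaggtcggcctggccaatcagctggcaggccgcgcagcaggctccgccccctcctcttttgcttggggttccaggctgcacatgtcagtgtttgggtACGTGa
Slc16a3: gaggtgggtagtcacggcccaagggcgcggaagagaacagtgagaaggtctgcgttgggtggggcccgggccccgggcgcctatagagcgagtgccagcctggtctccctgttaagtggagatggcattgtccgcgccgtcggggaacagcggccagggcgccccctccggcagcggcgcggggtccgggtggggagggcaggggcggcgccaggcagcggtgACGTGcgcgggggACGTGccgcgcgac
Egln3: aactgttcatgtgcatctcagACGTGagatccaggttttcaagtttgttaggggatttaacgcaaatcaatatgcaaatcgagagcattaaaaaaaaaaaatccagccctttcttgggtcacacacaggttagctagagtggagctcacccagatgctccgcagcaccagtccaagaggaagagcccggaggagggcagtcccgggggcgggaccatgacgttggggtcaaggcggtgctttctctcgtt
Bnip3: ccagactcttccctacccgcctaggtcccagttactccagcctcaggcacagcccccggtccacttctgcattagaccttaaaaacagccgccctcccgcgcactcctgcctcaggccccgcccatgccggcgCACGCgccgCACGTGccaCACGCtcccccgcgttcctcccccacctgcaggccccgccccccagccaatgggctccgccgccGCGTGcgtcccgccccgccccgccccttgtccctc
Ldha: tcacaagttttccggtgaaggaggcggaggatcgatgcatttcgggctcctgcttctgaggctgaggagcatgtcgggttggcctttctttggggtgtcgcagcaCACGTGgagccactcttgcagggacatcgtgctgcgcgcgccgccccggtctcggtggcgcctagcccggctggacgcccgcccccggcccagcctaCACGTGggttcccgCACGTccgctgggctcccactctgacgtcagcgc
Ldha held 5 matches to ACGTG, of which 4 lie in a pair of CACGTG palindromes. Both matches of Slc16a3 lay near the start site, and the single match of Egln3 lay near the far end of the window. A second Ldha start in the same table, further downstream, had 0 matches to ACGTG. The 5 genes printed all had a match to ACGTG, and other members that rose did not. Gpi1 and Tpi1 had 0 matches to either motif, and Pfkl and Eno1 had 0 to ACGTG. Pfkfb3, which was lower in Arg1-high macrophages, had up to 2 matches to ACGTG, and Car9, not called, had 1.

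Gpnmb, a lysosomal glycoprotein of lipid-laden macrophages, divided the same 14359 macrophages in another way, with 6449 (44.9%) Gpnmb-high. Of Arg1-high macrophages 37.8% were also Gpnmb-high. In Gpnmb-high macrophages 8 members were higher and 14 lower (edgeR adjusted p under 0.05), where 28.6% of 11258 genes were higher and 31.3% lower. The median log2 difference was -0.14 for the members and -0.01 for all genes.

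Genes of glycolysis went both ways with Gpnmb. Of the 8 genes of lower glycolysis 4 were higher and 1 lower. Of the 7 genes of upper glycolysis 2 were higher and 4 lower. Hk3 ran from 40.6 to 119 CPM (median 61.8 CPM) in Gpnmb-high and from 20.9 to 54.7 CPM (median 34.4 CPM) in Gpnmb-low macrophages, 2.24-fold higher in 18 of 18 tags (log2 difference 1.17 ± 0.06 SE, edgeR adjusted p 3.34e-13). Pgam1, the mutase before enolase, was 1.39-fold higher in 16 of 18 tags. Aldoa, Tpi1, Pkm, Pfkfb3, Ndrg1 and Car9 were higher by 1.14-fold to 1.34-fold. Hk3 was higher within every tag, although its ranges over tags overlapped. Without library 1 Aldoa and Pkm were no longer called (edgeR adjusted p 0.0914 and 0.231).

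Slc16a3 fell most with Gpnmb: it ran from 24.4 to 86.9 CPM (median 41.0 CPM) in Gpnmb-high and from 40.6 to 233 CPM (median 83.8 CPM) in Gpnmb-low macrophages, lower in 18 of 18 tags (log2 difference -0.98 ± 0.08 SE, edgeR adjusted p 1.49e-09). Ankrd37 (log2 difference -0.68), Vegfa (-0.42), Eno1 (-0.40), Ero1l (-0.39), Hif1a (-0.33) and Egln1 (-0.25) were lower as well, Egln1 in 18 of 18 tags. Slc2a3 was also lower (-0.42), as were the enzyme genes Hk1, Hk2, Pfkl and P4ha1. Without library 3 the log2 difference of Vegfa was -0.15 and no longer called (edgeR adjusted p 0.159), and 9 members in place of 14 were lower. With every cell thinned to 5000 molecules 8 were lower. Slc2a3 was then not tested, and 5 others were no longer called. These were Egln1 (edgeR adjusted p 0.145), Higd1a, Hk1, P4ha1 and Pfkl. Gpnmb-high macrophages had a median depth of 25792 molecules, against 18392.5 for Gpnmb-low. Monocyte markers summed to 361 CPM in Gpnmb-high and 895 CPM in Gpnmb-low macrophages, and their part in these differences was not tested.

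MHC class II molecules present antigen to T cells. Macrophages with 10 or more H2-Aa, H2-Ab1 and H2-Eb1 molecules among 5000 were called MHC-II-high, 3512 (24.5%) in all. In them 24 members were lower, 4 higher and 3 not called (edgeR adjusted p under 0.05), where 27.5% of 10966 genes were lower and 28.4% higher. The median log2 difference was -0.33 for the members and -0.00 for all genes.

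All 8 genes of lower glycolysis fell. Aldoa ran from 484 to 879 CPM (median 657 CPM) in MHC-II-high and from 797 to 1297 CPM (median 1038 CPM) in MHC-II-low macrophages, 1.54-fold lower in 18 of 18 tags (log2 difference -0.62 ± 0.03 SE, edgeR adjusted p 8.58e-15). Pgk1 was 1.52-fold, Pgam1 1.42-fold, Tpi1 1.40-fold and Pkm 1.38-fold lower, each in 18 of 18 tags. The ranges of these genes overlapped between tags, those of Aldoa over a short stretch.

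Egln3 had the largest decrease with MHC class II. It ran from 3.33 to 26.1 CPM (median 8.11 CPM) in MHC-II-high and from 8.76 to 59.6 CPM (median 16.7 CPM) in MHC-II-low macrophages, 2.10-fold lower in 18 of 18 tags (edgeR adjusted p 1.59e-08). Ankrd37 was 1.81-fold, Bnip3 1.58-fold, Pfkl 1.57-fold, Hk3 1.55-fold and Pdk1 1.45-fold lower. Slc16a3 was 1.24-fold lower (edgeR adjusted p 0.0208), in 12 of 18 tags, and lost the call without library 2, without library 3 and after thinning (edgeR adjusted p 0.205, 0.3 and 0.112).

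The 4 members that rose were Slc2a3, Ddit4, Pfkfb3 and Ndrg1. Slc2a3 ran from 3.56 to 10.6 CPM (median 6.44 CPM) in MHC-II-high and from 2.38 to 5.72 CPM (median 3.56 CPM) in MHC-II-low macrophages, 1.81-fold higher in 17 of 18 tags (edgeR adjusted p 7.76e-08). Ddit4 was 1.40-fold, Pfkfb3 1.24-fold and Ndrg1 1.19-fold higher. Slc2a3, Pfkfb3 and Ndrg1 are also the 3 genes that were lower in Arg1-high macrophages. The splits divide the same macrophages, and 7.76% of Arg1-high macrophages were MHC-II-high, against 24.5% of all. Monocyte markers summed to 1237 CPM and dendritic cell markers to 317 CPM in MHC-II-high, against 577 and 55.6 CPM in MHC-II-low macrophages. The median depth was 15390.5 molecules in MHC-II-high and 23992 in MHC-II-low macrophages. The part of these differences in the result was not tested.

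Lyve1, a hyaluronan receptor of resident macrophages, marked 405 macrophages (2.82%), and 8 tags held at least 20 of them. In Lyve1-high macrophages 2 members were higher, 4 lower and 25 not called (edgeR adjusted p under 0.05), where 8.39% of 10379 genes were higher and 8.05% lower. Ndrg1 ran from 3.49 to 60.6 CPM (median 8.33 CPM) in Lyve1-high and from 40.3 to 106 CPM (median 87.3 CPM) in Lyve1-low macrophages, 4.97-fold lower in 8 of 8 tags (log2 difference -2.31 ± 0.29 SE, edgeR adjusted p 7.21e-05). Ddit4 was 4.14-fold lower in 8 of 8 tags (medians 4.92 and 18.3 CPM, edgeR adjusted p 6.59e-05), and Vegfa 2.03-fold lower (edgeR adjusted p 0.00624). Slc2a1 was 1.79-fold lower, and Eno1 and Hk2 were 1.34-fold and 1.40-fold higher. Of Lyve1-high macrophages 63.7% were also Arg1-high. Without library 3 Eno1, Hk2, Slc2a1 and Vegfa were no longer called (edgeR adjusted p 0.153, 0.059, 0.0982 and 0.0565), and Hk2 was also not called without library 1 (0.345) or without tag 10 of library 1 (0.0565). After thinning to 5000 molecules Eno1 and Hk2 were not called (edgeR adjusted p 0.224 and 0.0589).

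**Figure D2:**
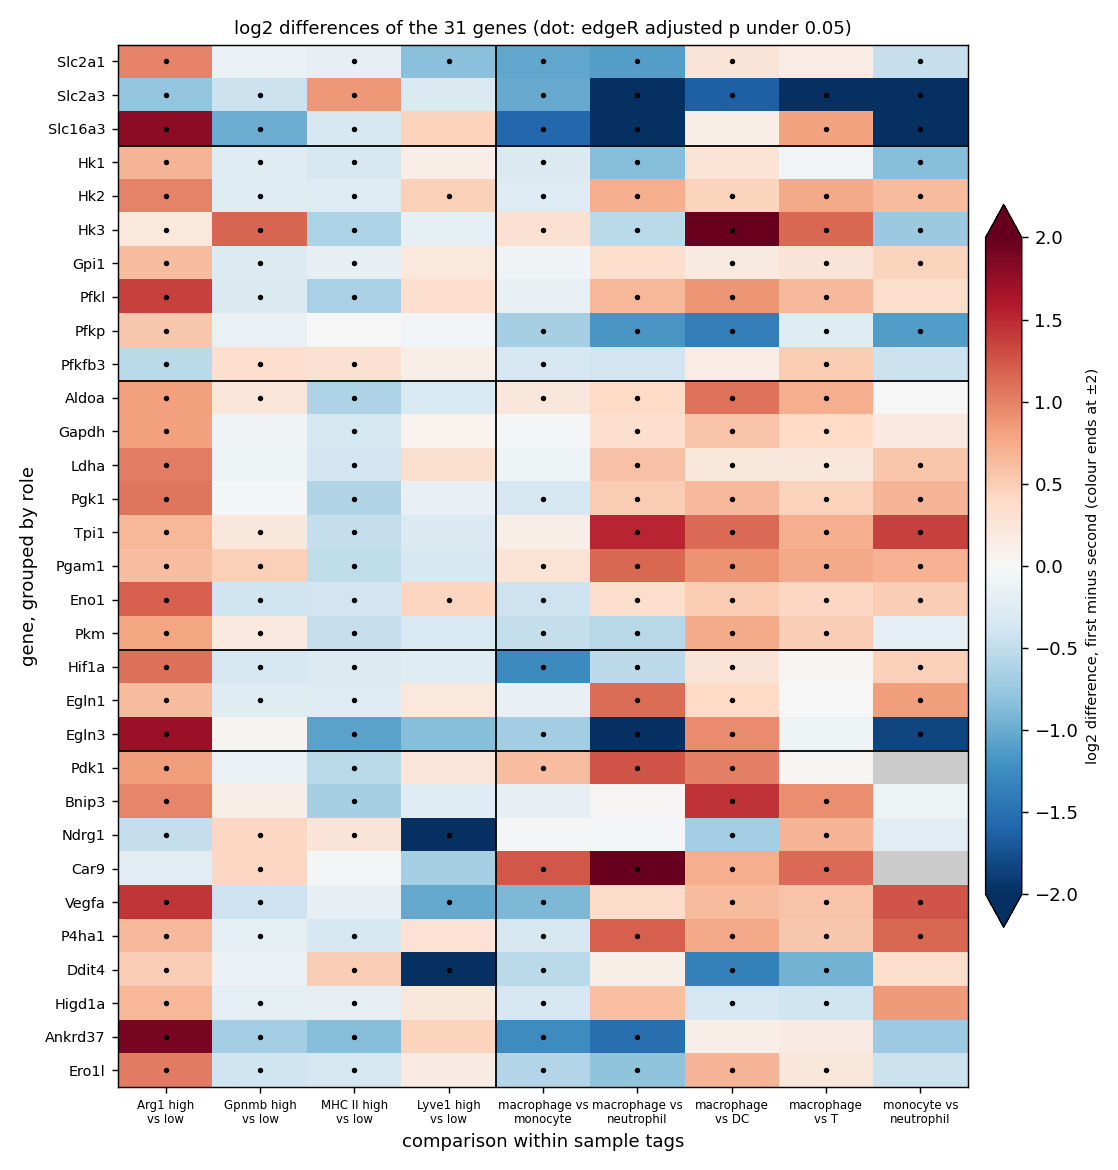
Log2 differences of the 31 genes in the 9 comparisons, as colours from lower to higher in the first group, with a dot where the edgeR adjusted p was under 0.05 and grey where a gene was not tested. The Arg1 column is higher for 27 genes and the MHC class II column lower for 24, with Slc2a3, Pfkfb3 and Ndrg1 opposite in both.

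The next comparisons set macrophages against other classes of the same tags. They share the macrophages, so the same macrophage levels enter each. Against neutrophils, in 9 tags, 13 members were higher in macrophages and 11 lower (edgeR adjusted p under 0.05), where 39.9% of 10394 genes were higher and 19.8% lower. The all-gene median was 0.58, and 0.74 with DESeq2 size factors, under which 16 members were higher and 10 lower. The member median was 0.34. Neutrophils held 488 cells of low depth, which limits the precision for genes of low level.

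All 3 transporter genes were lower in macrophages than in neutrophils. Slc2a3 lay between 3.18 and 5.32 CPM (median 4.27 CPM) in macrophages and between 128 and 429 CPM (median 281 CPM) in neutrophils, 68.1-fold lower in 9 of 9 tags (log2 difference -6.09 ± 0.20 SE, edgeR adjusted p 5.52e-23). Slc16a3 lay between 41.1 and 172 CPM (median 67.3 CPM) and between 351 and 906 CPM (median 685 CPM), 9.44-fold lower (edgeR adjusted p 3.16e-16). The ranges of both genes were far apart. Slc2a1 was 2.15-fold lower, with medians of 85.1 and 176 CPM. Egln3 was 4.97-fold lower, and its ranges of 13.04 to 57.2 and 58.0 to 217 CPM did not overlap (edgeR adjusted p 2.16e-10). Pfkp was 2.25-fold and Ankrd37 2.83-fold lower.

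The enzymes of lower glycolysis went the opposite way, with 7 of 8 higher in macrophages and Pkm lower. Tpi1 ran from 207 to 476 CPM (median 329 CPM) in macrophages and from 67.1 to 158 CPM (median 97.6 CPM) in neutrophils, 2.87-fold higher in 9 of 9 tags (edgeR adjusted p 4.85e-09). Pgam1 was 2.21-fold, P4ha1 2.29-fold and Egln1 2.16-fold higher. Aldoa, Eno1, Gapdh and Pgk1 exceeded neutrophils by less than the all-gene median of 0.58 on the log2 scale. Pkm was lower in all 9 tags, by 1.47-fold (edgeR adjusted p 0.00123). Its call did not hold without library 3 (edgeR adjusted p 0.0835). Car9 gave 3 molecules in all neutrophils, and 7 of the 9 tags were at 0, so no fold is given for it. Without library 1, which left 4 tags, 5 members were higher and 7 lower, and Pfkp and Ankrd37 were among those lost (edgeR adjusted p 0.353 and 0.149). Aldoa, Gapdh, Ldha, Pgk1 and Eno1 were not called there either (edgeR adjusted p 0.112 to 0.458), and Eno1 was also lost without library 3 (0.0921) and without tag 10 of library 1 (0.0873).

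Against monocytes, in 10 tags of which 7 belong to library 1, 5 members were higher in macrophages and 18 lower (edgeR adjusted p under 0.05), where 32% of 11223 genes were higher and 31.4% lower. The member median was -0.32 and the all-gene median 0.01. Slc16a3 ran from 41.1 to 172 CPM (median 69.5 CPM) in macrophages and from 139 to 298 CPM (median 200.2 CPM) in monocytes, 2.97-fold lower in 10 of 10 tags (log2 difference -1.57 ± 0.17 SE, edgeR adjusted p 1.18e-06). Hif1a ran from 166 to 265 CPM (median 212 CPM) and from 225 to 646 CPM (median 482 CPM), 2.41-fold lower (edgeR adjusted p 2.15e-08). Slc2a1 was 2.06-fold and Vegfa 1.87-fold lower, each in 10 of 10 tags. Within each tag these genes were lower in macrophages, although the ranges over tags of Slc16a3, Hif1a, Slc2a1 and Vegfa overlapped.

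Ankrd37 was 2.40-fold and Slc2a3 2.01-fold lower in macrophages than in monocytes, and Pkm, Pfkp, Eno1 and Egln3 were lower by 1.33-fold to 1.63-fold. The genes that were higher were Car9 (2.38-fold), Pdk1 (1.53-fold), Hk3, Pgam1 and Aldoa. Without library 1, in 3 tags, 0 members were higher (1 at an unadjusted p under 0.05) and 4 lower by edgeR. These 4 were Slc2a1 (log2 difference -0.96), Hif1a (-0.88), Vegfa (-0.88) and Slc16a3, which was 1.79-fold lower there in place of 2.97-fold (edgeR adjusted p 0.0499). Of the 23 members called over all 10 tags, 21 had the same direction without library 1, with larger errors. The log2 difference of Aldoa was 0.22 ± 0.16 SE, of Pgam1 0.47 ± 0.17 SE and of Pkm -0.37 ± 0.16 SE, none of them called (edgeR adjusted p 0.462, 0.0945 and 0.19). Ankrd37 (0.04 ± 0.61 SE) and Ero1l (0.09 ± 0.26 SE) changed sign, and Pfkfb3 and Hk1 lay near 0.

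Monocytes and neutrophils were compared in 6 tags, and the transporter genes were again lower than in neutrophils. Slc2a3 was 38.4-fold and Slc16a3 4.56-fold lower in monocytes, and Egln3 3.58-fold lower, each in 6 of 6 tags with no overlap (edgeR adjusted p 1.85e-10, 1.09e-08 and 3.43e-05). Of the 29 members tested 11 were higher in monocytes and 7 lower, where 29.4% of 4922 genes were higher and 27.5% lower. Tpi1 was 2.59-fold, Vegfa 2.40-fold and P4ha1 2.22-fold higher in monocytes, and Hif1a 1.40-fold higher. Slc2a1 was lower too, but not called without library 3 or without tag 10 of library 1 (edgeR adjusted p 0.1 and 0.0976). After thinning to 2000 molecules neither P4ha1 nor Slc2a1 was called (edgeR adjusted p 0.0648 and 0.361). Pdk1 and Car9 were too low to be tested.

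Against dendritic cells, in 16 tags, 22 members were higher in macrophages and 5 lower (edgeR adjusted p under 0.05), where 35.4% of 10916 genes were higher and 28.4% lower. The member median was 0.51 and the all-gene median 0.08. Hk3 ran from 32.2 to 96.8 CPM (median 50.5 CPM) in macrophages and from 0 to 27.8 CPM (median 12.97 CPM) in dendritic cells, 5.53-fold higher in 16 of 16 tags without overlap (edgeR adjusted p 3.93e-13). Bnip3 was 2.72-fold, Tpi1 2.19-fold and Aldoa 2.13-fold higher, and all 8 genes of lower glycolysis were higher, although Ldha was not called without library 1 (edgeR adjusted p 0.261). Pfkp ran from 41.9 to 82.9 CPM (median 53.8 CPM) in macrophages and from 89.3 to 207 CPM (median 156 CPM) in dendritic cells, 2.60-fold lower without overlap (edgeR adjusted p 9.31e-14). Slc2a3 was 3.10-fold, Ddit4 2.55-fold, Ndrg1 1.60-fold and Higd1a 1.26-fold lower in macrophages. With every cell thinned to 2000 molecules Higd1a was not called (edgeR adjusted p 0.307), and Slc2a3 was not tested.

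Against T cells, in 18 tags, 20 members were higher in macrophages and 4 lower (edgeR adjusted p under 0.05), where 33.8% of 10889 genes were higher and 31.9% lower. All 8 genes of lower glycolysis were higher, from Ldha at 1.18-fold to Pgam1 at 1.69-fold. Hk3 was 2.22-fold and Slc16a3 1.74-fold higher. Slc2a3 ran from 3.06 to 5.97 CPM (median 4.27 CPM) in macrophages and from 12.1 to 39.4 CPM (median 21.2 CPM) in T cells, 4.82-fold lower in 18 of 18 tags without overlap (edgeR adjusted p 3.09e-13). Ddit4, Higd1a and Pfkp were the other members lower in macrophages, and Pfkp was not called without library 1 or without library 3 (edgeR adjusted p 0.113 and 0.0598). The T class also carried macrophage transcripts, as its summed markers show. With only T cells whose C1q genes made up under 0.05% of molecules, in 15 tags, 20 members were higher and 4 lower, and 23 of the 24 calls over all T cells were the same. The exception was Ero1l, called higher over all T cells, with a log2 difference of -0.0041 (edgeR adjusted p 0.978), and Slc2a1, not called over all T cells, was called higher (1.27-fold). Several folds were larger against these T cells: Hk3 was 6.81-fold, Bnip3 3.48-fold, Pgam1 2.62-fold and Tpi1 2.53-fold higher, and Pfkp was 1.61-fold and Ddit4 2.78-fold lower. With every cell thinned to 2000 molecules Ldha was not called (edgeR adjusted p 0.1).

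Genes of the neighbouring steps moved partly with the members. In Arg1-high macrophages 8 of 17 other glycolysis genes tested were higher and 2 lower (edgeR), led by Slc2a6, a lysosomal hexose transporter (3.30-fold, 18 of 18 tags), and the aldolase gene Aldoc (2.18-fold), with Slc2a8 and Pfkfb4 lower. Of 17 other hypoxia genes 10 were higher and 1 lower, among them the collagen hydroxylase gene P4ha2 (2.16-fold) and Adm, which encodes adrenomedullin (2.36-fold), with Plod2 lower. Of 19 genes of pyruvate entry and the citrate cycle 11 were higher and 3 lower, with a median log2 difference of 0.10, and of 7 pentose phosphate genes 5 were higher and 1 lower. Over all genes tested with Arg1, 25.7% were higher and 26.5% lower.

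In MHC-II-high macrophages 1 of 17 other glycolysis genes was higher and 6 lower (edgeR), and 2 of 19 citrate cycle genes were higher and 11 lower, where 28.4% of all genes were higher and 27.5% lower. Epas1, which encodes HIF-2α, was 3.93-fold lower there in 18 of 18 tags, with medians of 5.67 and 23.2 CPM (edgeR adjusted p 3.09e-14). Epas1 moved the other way with Gpnmb: it was 2.62-fold higher in Gpnmb-high macrophages in 18 of 18 tags, with medians of 28.4 and 10.3 CPM (edgeR adjusted p 6.08e-09), while Hif1a was lower. Slc2a6, like Slc16a3, was lower in Gpnmb-high macrophages (3.55-fold) and lower in macrophages than in neutrophils (9.75-fold). Of the 19 citrate cycle genes 14 were higher in macrophages than in neutrophils, among them Fh1, the fumarate hydratase, and 1 was lower, where 39.9% of all genes were higher and 19.8% lower.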

How the data were processed

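The authors deposited 1 table of molecule counts per sample tag, cells by genes. Per the file headers these are unique molecules after error correction of their identifiers (RSEC), made with the BD Rhapsody pipeline on GRCm38, library 1 with a later release that kept intronic reads. Total counts per tag ran from 10152522 to 62344127 molecules. The members, gene lists and comparisons were chosen with earlier results of these data known. Every member could be named, and of each other list at most the 2 genes with the largest called difference in each direction.

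Cells with under 200 genes were left out. Unthinned counts were added up over the cells of a class in each tag (20 or more cells in both groups) and tested with edgeR 4.0.16 (quasi-likelihood, TMM, low-count filter, tag as block, Benjamini-Hochberg over all genes tested, threshold 0.05). Each tag gives both groups, so tags pair them by construction. SE is that of the log2 difference. P-values weigh the difference between the 2 groups within a tag against its spread from tag to tag. Differences in level between tags that both groups share are taken up by the block. The labels call the tags biological replicates. On simulated counts of 11666 genes for the Arg1 comparison, 93 of 100 genes changed by 1 log2 unit were recovered, with 9 false calls. For macrophages against monocytes 86 of 100 were recovered, with 10 false calls. Changes under 1 log2 unit, such as most of those with MHC class II or Gpnmb, were not simulated. Macrophages were split at 2 molecules of Arg1, Gpnmb or Lyve1, or 10 of MHC class II, after thinning to 5000 molecules; cells near those limits were kept. Alternatives were DESeq2 1.42.0 and its size factors, no filter, no block, each library left out, 50 cells per group, other split limits, T cells, dendritic cells, monocytes and neutrophils of low C1q only, thinning to 2000 molecules (5000 for macrophage subsets), and leaving out the 2% of cells with the highest doublet scores. Leaving out tag 10 of library 1 was added after seeing the data.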

Additional observations from a re-analysis of the deposited data

Results flagged for a closer look

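In the macrophage levels of the 31 genes within each library, 22 of 93 sets of tags held a tag whose gap to the nearest other tag was large for the range of its set. Chance alone gives about 1 in 20 such sets, and the sets are not independent, since the genes share tags.

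Of the 22, 16 belonged to tag 10 of library 1, which was highest there. The genes of lower glycolysis among them were Gapdh at 2208 CPM (other tags 1527 to 1818 CPM), Ldha at 607 CPM (330.3 to 397 CPM) and Eno1 at 796 CPM (412 to 550 CPM). Of upper glycolysis and transport they were Hk1 at 51.2 CPM, Gpi1 at 387 CPM, Pfkl at 75.8 CPM, Slc2a1 at 143 CPM and Slc16a3 at 172 CPM. Of oxygen sensing and the hypoxia response they were Egln1 at 101 CPM, Egln3 at 57.2 CPM, Pdk1 at 38.2 CPM, Bnip3 at 160 CPM, Ddit4 at 41.6 CPM, Higd1a at 50.9 CPM, Ankrd37 at 23.5 CPM and Ero1l at 217 CPM. Of 9237 genes, 3.68% were highest and apart in this tag in the same way.

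The other 6 were spread over 4 tags. Tag 1 of library 2 was highest in Hk2 (95.9 CPM, other tags 53.3 to 61.5 CPM) and in Pfkp (82.9 CPM, other tags 46.4 to 56.5 CPM). Tag 5 of library 2 was lowest in Pgk1 at 231 CPM, against 406 to 449 CPM. Tag 7 of library 3 was highest in Pfkp at 69.7 CPM. Tag 12 of library 3 was highest in Egln3 at 33.5 CPM and in Ddit4 at 27.3 CPM. Tag 1 of library 2 and tag 7 of library 3 were also the tags of their libraries with the largest share of Arg1-high macrophages, 49.4% and 50%.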

How the results depend on the processing

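Over all alternatives, 3069 values of single members kept their direction and side of the threshold (a change of sign between uncalled values was counted here), 198 lost and 54 gained a call and 5 reversed. The cause of these changes was not tested, except that leaving out library 1 leaves 3 tags against monocytes and 4 against neutrophils. Members with the same call under every alternative run were 27 of 31 for Arg1, 22 for MHC class II, 18 for Gpnmb, 17 for Lyve1, 21 against dendritic cells, 23 against T cells, 10 against neutrophils and 9 against monocytes, and 17 of 29 for monocytes against neutrophils. Reversed log2 differences were, without library 1, Ankrd37 (-1.33 to 0.038 over the libraries left out) and Ero1l (-0.66 to 0.095) against monocytes and Hif1a (-0.69 to 0.010) against neutrophils, and, after thinning, Pdk1 against T cells (-0.53, edgeR adjusted p 0.0271), and, with cells of low C1q only, Ero1l against T cells (-0.0041).

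Leaving out 1 library in turn gave these ranges of members called: against monocytes 0 to 5 higher and 4 to 19 lower, against neutrophils 5 to 13 higher and 7 to 12 lower, with Gpnmb 9 to 15 lower, and with Lyve1 1 to 4 higher and 2 to 4 lower. Without the replicate block on tags, the counts higher were 3 against monocytes, 7 for monocytes against neutrophils, 5 with Gpnmb, 2 with MHC class II and 0 with Lyve1, and 2 were lower with Lyve1. Without the filter, 7 were lower against neutrophils, 4 for monocytes against neutrophils and 10 with Lyve1. Thinned (to 2000 molecules for classes and 5000 for macrophage subsets), 3 were higher against monocytes, 7 higher and 4 lower for monocytes against neutrophils, 3 lower against dendritic cells, 1 lower with Arg1, 8 lower with Gpnmb and 0 higher with Lyve1. Part of these falls are members under the filter after thinning and so not tested: Car9 against monocytes, Slc2a3 against dendritic cells and with Arg1 and Gpnmb, and Egln1, Hk1, Hk2 and Hk3 for monocytes against neutrophils. With at least 50 cells, 4 were higher against neutrophils. At the higher Lyve1 limit, in 2 tags, 0 were higher and 2 lower, and without tag 10 of library 1, 1 was higher. Monocytes against neutrophils without library 1, and Lyve1 with 50 cells, left 1 tag and were not fitted. The split of Lyve1 by rank was not run. Where edgeR called 0 members higher with Lyve1, the number at an unadjusted p under 0.05 was 1 without the block, 4 after thinning and 8 at the higher limit.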
